A study of Mus musculus with 12 samples.

Results

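The genes described are those of the cytosolic ribosome in embryonic mouse lung explants. Members were chosen by name: every gene symbol built as Rps or Rpl with a number, the stalk genes Rplp0, Rplp1 and Rplp2, and Rpsa, the laminin receptor gene whose product sits in the small subunit. The rule found 84 of 24421 symbols in the deposited count table, of which 31 belong to the small subunit, 43 to the large subunit and 3 to its stalk, and 7 are paralogs, near relatives of another member. Reads were counted in 12 libraries of whole wild-type CD-1 lungs taken at embryonic day 12.5 and grown at an air-liquid interface. In 4 compression lungs a 20% PEG-HCC solution, added at Day 0 (the day after isolation), was crosslinked by a two-photon laser so that the polymer held the lung for 2 days. In 4 control lungs the same solution stayed liquid until Day 2, and 4 lungs were sampled at Day 0. Crosslinking and restriction of growth cannot be told apart in this design, nor can time in culture and time in the solution, and since nothing in the labels ties each library to an animal of its own, p-values measure only the spread between these samples.

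The cytosolic ribosome translates nuclear mRNAs. Its small subunit reads the mRNA, its large subunit joins the amino acids, and the stalk calls in the elongation factors. Many ribosomal protein mRNAs begin with a run of pyrimidines that opens with a C, the 5' terminal oligopyrimidine tract, through which growth signalling by mTORC1 and the binding protein LARP1 sets how well they are translated. In growing embryonic tissue these mRNAs are among the most abundant of the cell.

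The first bases of an mRNA carry the tract, so windows of 10 bases before and 20 bases from the annotated start are shown for members described below. Sequences are RefSeq's (GRCm38.p6), 5' to 3' on the gene's strand, and capitals mark a run of C and T that opens with C within 5 bases of the start and is at least 5 bases long. The first 4 hold such a run, and the last 2 do not.
Rps6, chr4:86857348-86857377, minus strand: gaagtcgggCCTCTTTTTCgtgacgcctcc
Rpl39, chrX:37085203-37085232, minus strand: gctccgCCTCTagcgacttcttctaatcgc
Rps27l, chr9:66946076-66946105, plus strand: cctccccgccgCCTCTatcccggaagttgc
Rpl22l1, chr3:28805498-28805527, plus strand: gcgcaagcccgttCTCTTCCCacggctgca
Rplp0, chr5:115559457-115559486, plus strand: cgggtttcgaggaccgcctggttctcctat
Rpl7l1, chr17:46782637-46782666, minus strand: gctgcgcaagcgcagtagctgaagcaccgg

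Of 63 members with a start in the RefSeq table, 29 (46.0%) held the run, against 21.2% of 27025 genes and 17 of 69 genes of mitochondrial ribosomal proteins (24.6%). A match describes these letters only, and RefSeq's start need not be the one the cells use: for the 6 genes shown it lay 0 to 180 bases from the outermost start in GENCODE, and many genes have several starts.

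Total counts were 13979871 to 33249761 per library, and levels are given as CPM, counts scaled to a common library total by the TMM method. Liver markers summed to 1466 CPM in 1 control library, replicate 4, and to at most 16.9 CPM in every other library, while markers of lung epithelium and mesenchyme were detected in all libraries, 11 of 11. The ribosomal RNA precursor Rn45s took 5.64% of the counts of compression replicate 4 and 0.554% to 2.67% of the counts of the other libraries.

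The members together took 4.73%, 5.15%, 5.38% and 5.36% of all counts in compression replicates 1 to 4. In control replicates 1 to 4 they took 4.57%, 4.95%, 4.84% and 5.03%, and at Day 0 4.83%, 4.76%, 4.46% and 4.21%. The means were 5.16% ± 0.30 under compression, 4.85% ± 0.20 in controls and 4.56% ± 0.29 at Day 0 (SD, n = 4 each). The compression and control ranges overlapped through compression replicate 1, and each Day 2 range also overlapped the Day 0 range. A sum over whole lungs cannot tell fewer cells of a type from less RNA per cell. For comparison, the 77 mitochondrial ribosomal protein genes took 0.240%, 0.239% and 0.240% of the counts under compression, in controls and at Day 0.

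**Figure D1:**
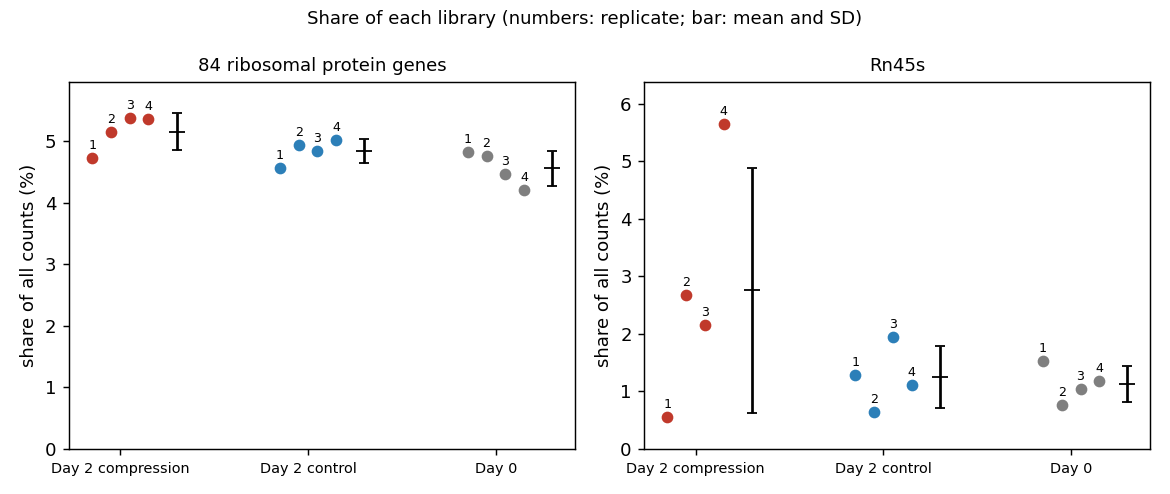
Share of all counts, in percent, taken by the 84 ribosomal protein genes (left) and by the ribosomal RNA precursor Rn45s (right) in each library; dots are libraries with their replicate number, bars the mean and SD of 4. The ribosomal protein share spans 4.73% to 5.38% under compression, 4.57% to 5.03% in controls and 4.21% to 4.83% at Day 0, and compression replicate 4 stands apart in Rn45s with 5.64%.

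Of the 84 members, 80 had enough counts to be tested and 77 had a mean above 10 CPM. Levels per length were computed from the counts and the merged exons of each gene, in TPM. The highest mean levels per length were those of Rps3a1 (4917 ± 308 TPM), Rps15 (4681 ± 458 TPM), Rpl4 (3758 ± 168 TPM), Rplp1 (3673 ± 599 TPM) and Rpl23a (3418 ± 316 TPM), with the SD over 12 libraries. Rps3a1 and Rps15 overlap in their spread, as do Rpl4, Rplp1 and Rpl23a. This order rests on the length used: with the length of the first protein-coding transcript the leading 5 were Rps24, Rpl32, Rps14, Rps4x and Rpl8, and 0 of the 5 were shared.

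At the low end, Rpl26 and Rpl10l had 0 counts in each of the 12 libraries, which allows up to 0.0899 to 0.214 CPM per library. Rpl39l had 28 counts and Rpl3l 24 counts over all libraries. In the mouse Rpl10l and Rpl39l are known from male germ cells and Rpl3l from striated muscle. Rpl26, in contrast, is an obligate part of the large subunit. Rpl30, Rpl34 and Rps27, also obligate parts, had only 242, 694 and 440 counts over the 12 libraries. In the GENCODE transcripts of GRCm38, 71.3% of the 50-base stretches of Rpl26 and 98.6% of those of Rps27 also occur in another annotated gene, but the fraction was 47.8% for Rpl30 and 37.9% for Rpl34, and Rpl10, at 92.1%, had 250635 counts. The treatment of reads that fit several places was not given in the sources used here, so the values of Rpl26, Rpl30, Rpl34 and Rps27 are not read as levels, although the last 3 stay in the counts of tested members. The same limit touches most members to some degree: over the 83 with a transcript the median shared fraction was 49.1%, and it was above 50% in 40.

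Under compression, no member and no gene of the 15246 tested passed the threshold against controls (adjusted p under 0.05, edgeR's quasi-likelihood test with Benjamini-Hochberg adjustment, 0% called). At an unadjusted p under 0.05 the test gave 1 member higher, Rpl11, and 0 lower, against 6.73% of all genes higher and 5.33% lower. That count rests on single libraries: without compression replicate 1 it was 30 higher and 1 lower, it was 4 higher without control replicate 4 and 2 higher without control replicate 3, and 0 higher without Day 0 replicate 3, control replicate 2 or compression replicate 4. The unadjusted share of all genes was not counted in these fits, so 6.73% is not their background. No member passed the adjusted threshold in any of them. DESeq2 called 0 members among 52 genes higher and 19 lower, and limma 1 member among 1139 genes higher and 819 lower. The fold changes nevertheless lay on one side of 0: 71 of 80 members were above 0, against 51% of all genes, with a median log2 fold change of 0.10 against 0.00 for all genes. Leaving out 1 library at a time gave 60 to 75 members above 0, and the median was 0.06 with compression replicate 4 left out and 0.14 with replicate 1 left out. By role, 28 of 31 small subunit genes, 39 of 42 large subunit genes and 3 of 3 stalk genes were above 0, with medians of 0.11, 0.08 and 0.20, against 1 of 4 paralogs with a median of -0.11. The median fold change over members, 0.10, was near the median of their errors, 0.08. The members of a library also move together, so the count is a description of these 8 libraries.

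**Figure D2:**
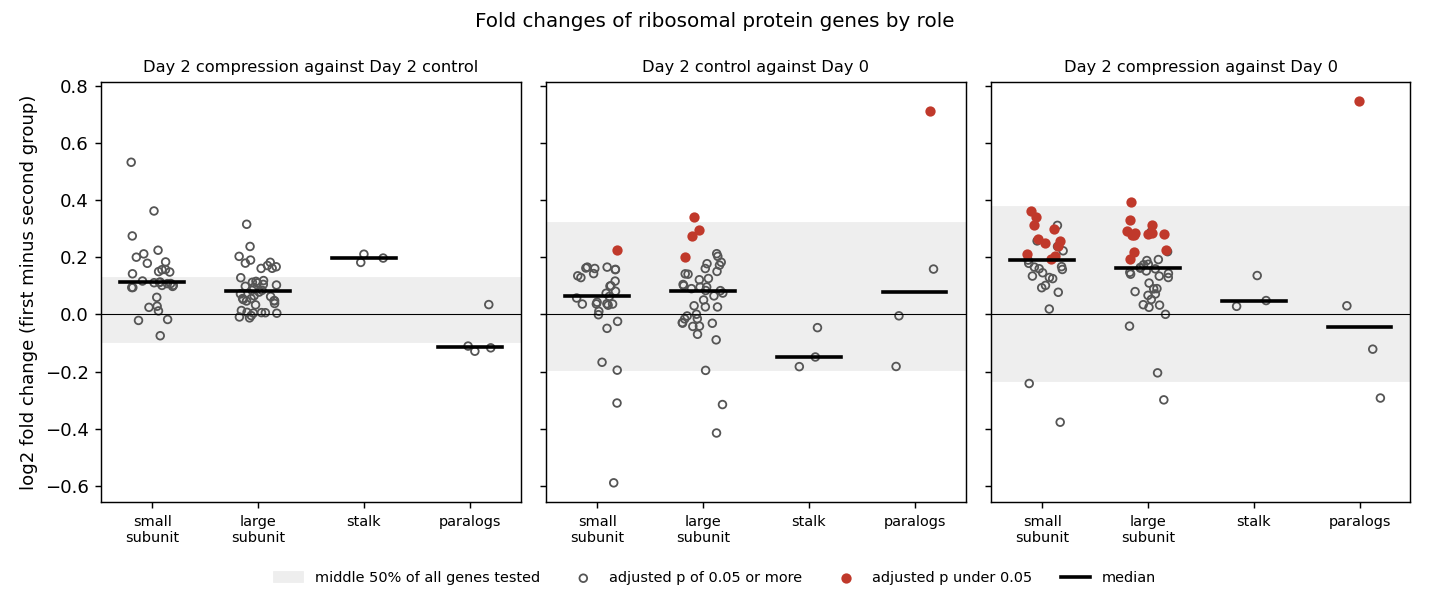
Log2 fold changes of the 80 tested ribosomal protein genes in each comparison (first minus second group), by role, with medians as bars, filled points for an adjusted p under 0.05 and a grey band between the quartiles of all genes tested. Compression against control has 71 of 80 genes above 0 and none filled, control against Day 0 has 6 filled and compression against Day 0 has 25, all above 0.

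Rpl11, which binds the 5S ribosomal RNA together with Rpl5 and can hold back the p53 inhibitor Mdm2, had 497.9, 572.2, 550.8 and 631.0 CPM under compression, against 460.0, 502.7, 515.5 and 521.2 CPM in controls. The lowest compression library lay inside the control range and the other 3 above it. Its log2 fold change was 0.17 ± 0.08 (SE, edgeR adjusted p = 0.398). Rpl28, a large subunit protein, had 683.6, 690.5, 740.1 and 893.2 CPM under compression, against 627.2, 694.8, 660.3 and 666.7 CPM in controls (0.18 ± 0.09, adjusted p = 0.432). Rps28, which lies where the mRNA leaves the small subunit, had 241.6, 278.0, 270.3 and 408.1 CPM under compression, against 210.6, 243.3, 264.5 and 271.8 CPM in controls (0.28 ± 0.13, adjusted p = 0.432). In both genes compression replicate 4 was the highest library of the 8 by a wide margin, and the groups overlapped.

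The stalk base gene Rplp0 had 1182, 1445, 1331 and 1638 CPM under compression, against 1059, 1279, 1288 and 1251 CPM in controls and 1295, 1481, 1312 and 1321 CPM at Day 0. Compression replicate 1 lay inside the control range and the other 3 above it (0.20 ± 0.10, adjusted p = 0.433). Rplp1 and Rplp2, whose products sit on Rplp0 in pairs, had their lowest Day 2 value in control replicate 1 (315.1 and 273.5 CPM) and their highest in compression replicate 4 (635.2 and 463.8 CPM). The 3 genes thus had the same Day 2 libraries at their extremes.

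In 1 member each way the compression and control libraries did not overlap, against 3.07% of all genes higher and 2.7% lower. Rps23, near the decoding centre, had 564.9 to 588.1 CPM under compression, against 518.6 to 554.8 CPM in controls. Rpl7l1, named for its likeness to Rpl7, had 135.1, 126.8, 136.0 and 120.2 CPM under compression, against 138.7, 147.1, 137.9 and 138.0 CPM in controls (-0.12 ± 0.06, adjusted p = 0.440). Rps23 lies outside the rule for named genes and was chosen after its values were seen.

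Other features of the libraries moved with the members. Across 76 members, the deviation of a library from its group mean went with the GC content of the transcript in most Day 2 libraries. Pearson's r was 0.61 in compression replicate 4, -0.46 in replicate 1 and -0.49 in replicate 3, and -0.50, 0.49 and 0.43 in control replicates 1, 3 and 4. It was 0.02 in compression replicate 2 and -0.15 in control replicate 2. Over 14011 genes of all kinds r was 0.49, -0.19 and -0.29 in compression replicates 4, 1 and 3, and -0.31, 0.20 and 0.14 in control replicates 1, 3 and 4. In replicate 2 of compression and of control it was -0.05 and -0.01. The 76 members ran from 40.6% to 62.4% GC, but the members of a library move together, so these are descriptions. The fold change of compression over control had r = 0.44 with GC content, with a median of 0.16 in the 26 members of highest GC and 0.05 in the 26 of lowest, against r = 0.13 over all genes. For control against Day 0 r was -0.36, with a median of 0.04 in the members of highest GC and 0.15 in those of lowest, and for compression against Day 0 r was -0.06. Within Day 0, replicate 1 had r = -0.57 and the other 3 libraries 0.14 to 0.26. The part of base composition in these fold changes was not tested.

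**Figure D3:**
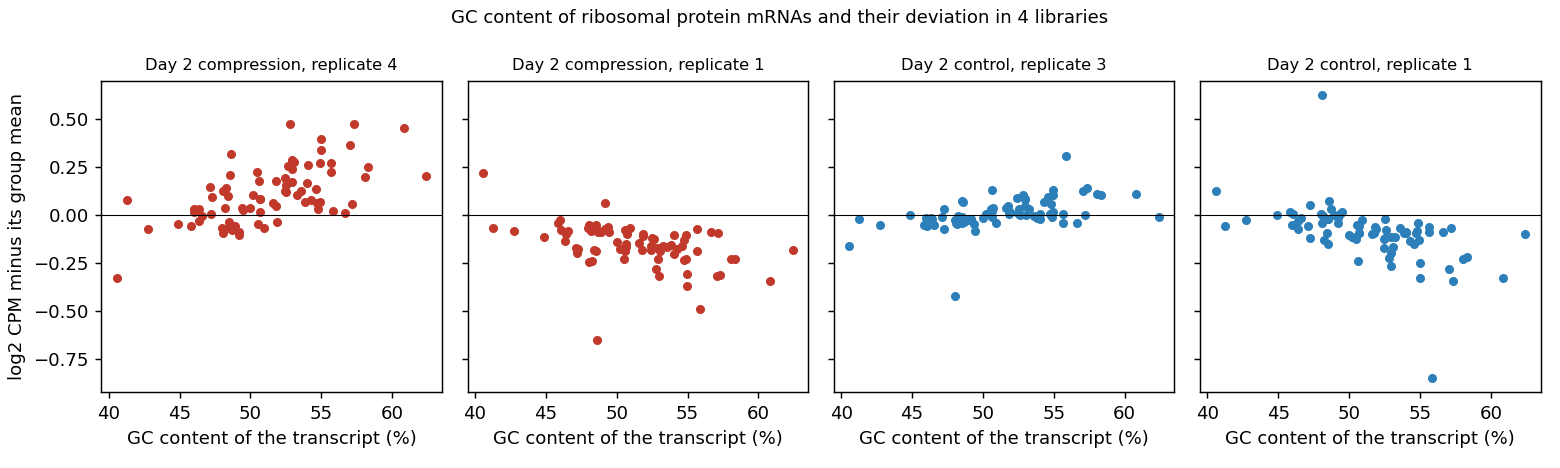
Deviation of each ribosomal protein mRNA from its group mean (log2 CPM, vertical) against the GC content of its transcript (percent, horizontal) in 4 libraries; each dot is 1 of 76 genes. The cloud rises with GC content in compression replicate 4 (r = 0.61) and control replicate 3 (r = 0.49) and falls in compression replicate 1 (r = -0.46) and control replicate 1 (r = -0.50).

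Cell type markers also differed between the groups. The summed level of 6 leukocyte markers, all detected, was 125 to 161 CPM under compression, 84.2 to 143 CPM in controls and 70.3 to 84.9 CPM at Day 0. The 6 markers of lung epithelium, all detected, summed to 1797 to 2346 CPM under compression, 1615 to 1770 CPM in controls and 768 to 936 CPM at Day 0. Between compression and control most of that difference was Sftpc, a surfactant gene (1017 CPM on average under compression, 574 CPM in controls and 72.9 CPM at Day 0), while Epcam averaged 307, 303 and 218 CPM and Cdh1 431, 432 and 213 CPM in the same order. Sox9, of the distal buds, was highest at Day 0 (107, 93.4 and 130 CPM). The next 2 lists were highest at Day 0. Red cell markers, 4 of 5 detected with Hba-a1 at 0, were 113 to 209 CPM under compression, 109 to 191 CPM in controls and 1045 to 2160 CPM at Day 0. The 4 endothelial markers, all detected, summed to 54.1 to 69.9 CPM under compression, 41.5 to 77.5 CPM in controls and 222 to 369 CPM at Day 0. The part of these cells in the ribosomal protein values was not tested.

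Over the 2 days in liquid solution, 6 members rose in controls against Day 0 and 0 fell. These are 7.5% of the 80 tested, below the 22.6% of all genes that rose, and 17.6% of all genes fell. At an unadjusted p under 0.05, 11 members were higher and 0 lower, against 26.8% and 22.1% of all genes, and neither DESeq2 nor limma called a member lower. Fold changes of 55 of 80 members were above 0, against 52.3% of all genes, with a median of 0.07 against 0.02. Without Day 0 replicate 4 the figures were 42 of 80 and a median of 0.01, a share near that of all genes, and the median was 0.04 without Day 0 replicate 3 or control replicate 4. The 6 were Rps27l, Rpl31, Rpl39, Rpl23, Rps24 and Rpl17, so 1 is a paralog, 1 a small subunit gene and 4 large subunit genes. The count was 14 without Day 0 replicate 1, where 3093 of 15406 genes were higher. In 6 members control libraries lay wholly above Day 0 and in 2, Rplp0 and the low-count Rps27, wholly below, against 20.4% and 17.4% of all genes.

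Rps27l, a paralog of the zinc-binding small subunit gene Rps27 and a known target of p53, changed most. It had 82.9, 89.8, 100.9 and 86.8 CPM under compression, 87.9, 88.9, 88.1 and 87.2 CPM in controls, and 63.2, 57.3, 49.5 and 45.1 CPM at Day 0. All 8 libraries of Day 2 lay above all 4 of Day 0, and the control libraries differed by less than 2 CPM. The log2 fold change was 0.71 ± 0.09 in controls against Day 0 (edgeR adjusted p = 5.69e-05) and 0.75 ± 0.09 under compression against Day 0 (adjusted p = 2.63e-05), and 0.03 ± 0.09 between compression and control (adjusted p = 0.890). Rps27l lies at chr9:66946086-66949516 on the plus strand and shares 22.4% of its 50-base stretches with other annotated genes.

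Rpl31, at the exit of the tunnel through which the new chain leaves, had 608.0, 604.7, 715.1 and 650.0 CPM under compression, 621.9, 648.5, 594.4 and 615.4 CPM in controls, and 583.8, 481.6, 472.9 and 420.5 CPM at Day 0. Rpl39, a short protein of the tunnel wall, had 343.3, 368.3, 409.2 and 346.1 CPM under compression, 377.8, 370.9, 359.7 and 370.7 CPM in controls, and 340.1, 295.9, 303.3 and 266.4 CPM at Day 0. In both genes every Day 2 library lay above every Day 0 library, Rpl39 by as little as 3 CPM. Rpl31 rose by a log2 fold change of 0.34 ± 0.09 in controls (adjusted p = 0.00873) and 0.40 ± 0.09 under compression (adjusted p = 0.00268). Rpl39 rose by 0.29 ± 0.08 in controls (adjusted p = 0.00767). Their genes lie at chr1:39367842-39371911 (plus strand) and chrX:37082520-37085402 (minus strand).

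Rpl23, of the face between the subunits, averaged 1058 ± 80 CPM under compression, 1030 ± 41 CPM in controls and 851 ± 55 CPM at Day 0, with a rise of 0.31 ± 0.07 under compression (adjusted p = 0.00245) and 0.27 ± 0.07 in controls (adjusted p = 0.00721). Rps24, one of the genes mutated in Diamond-Blackfan anaemia in humans, averaged 1124 ± 78, 1140 ± 39 and 974 ± 83 CPM in compression, control and Day 0 lungs, with a rise of 0.23 ± 0.07 in controls (adjusted p = 0.0245). Rpl17, at the tunnel exit, averaged 1028 ± 100, 970 ± 62 and 844 ± 28 CPM in the same order of groups. It rose by 0.29 ± 0.08 under compression (adjusted p = 0.00696) and by 0.20 ± 0.08 in controls, where it was at the threshold (adjusted p = 0.0493). All 3 genes had their lowest mean at Day 0, but a Day 0 mean below that of controls follows from how they were named. The rise of Rpl17 in controls was called in none of the fits without Day 0 replicate 1, 2, 3 or 4 or without control replicate 2, 3 or 4 (adjusted p 0.0695 to 0.171), nor without compression replicate 2, 3 or 4 (0.0611 to 0.0795), nor with DESeq2's size factors (0.0688). The rise of Rps24 was not called without Day 0 replicate 3 or 4 or control replicate 2 or 4 (adjusted p 0.0647 to 0.0768).

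**Figure D4:**
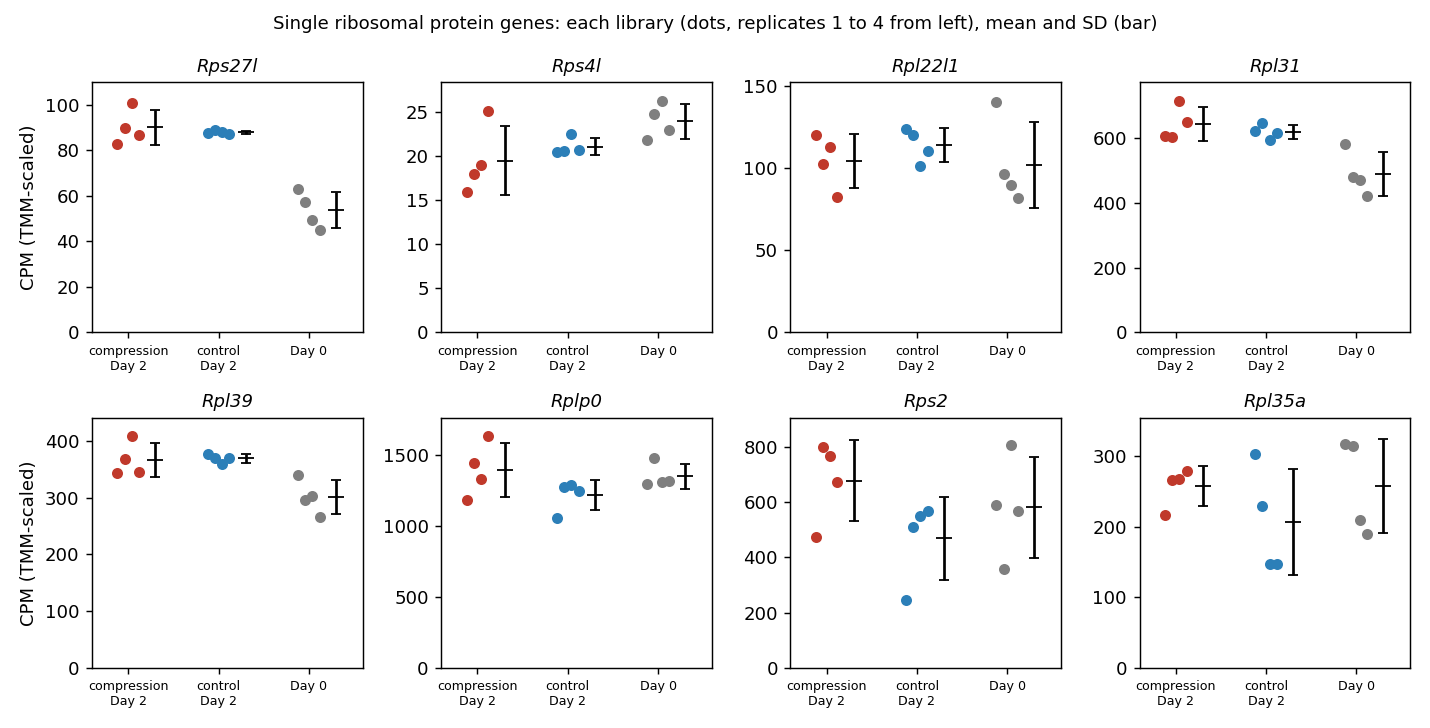
Levels in CPM of 8 ribosomal protein genes in the 4 libraries of each group (dots), with mean and SD (bars). Rps27l, Rpl31 and Rpl39 lie higher in both Day 2 groups than at Day 0 with no overlap, Rps4l and Rpl22l1 overlap between groups, and Rps2 and Rpl35a spread widely within groups.

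Under compression, 25 members rose against Day 0 and 0 fell. These are 31.2% of the 80 tested, against 26.6% of all genes higher and 22.5% lower, so the share called higher was near the background. At an unadjusted p under 0.05, 36 members were higher and 2 lower, against 29.8% and 25.7% of all genes, and DESeq2 and limma each called 3 lower. Fold changes of 73 of 80 members were above 0, against 51.6% of all genes, and the median was 0.16 against 0.02. Without Day 0 replicate 4 or compression replicate 4, 65 of 80 were above 0, with medians of 0.10 and 0.11. By role, 11 of 31 small subunit genes, 13 of 42 large subunit genes, 0 of 3 stalk genes and 1 of 4 paralogs were called higher, counts that stand beside the same 26.6% of all genes. The comparison shares its Day 0 libraries with that of controls. The count of 25 rests on single libraries: it was 10 without Day 0 replicate 4, 11 without Day 0 replicate 3 or compression replicate 3, and 16 without compression replicate 4. In these fits 3463 to 3777 genes of 15356 to 15390 tested were higher, so the count over all genes fell less. The count of members was 15 with compression replicates 2 and 3, whose descriptions share a number, summed into 1 sample (3447 of 15374 genes higher).

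Behind Rps27l and Rpl31, the members that rose most were Rps29, Rps19, Rpl37a and Rps15. Rps29, a zinc-binding protein of the small subunit, had 420.1, 459.7, 468.6 and 579.6 CPM under compression, 371.9, 432.1, 417.6 and 456.0 CPM in controls, and 411.0, 404.5, 347.9 and 335.1 CPM at Day 0, and rose by 0.36 ± 0.10 (adjusted p = 0.00983). Rps19, the gene most often mutated in Diamond-Blackfan anaemia in humans, had 412.8, 520.7, 523.3 and 628.9 CPM under compression, 379.7, 478.4, 482.9 and 494.8 CPM in controls, and 427.8, 448.6, 407.7 and 362.2 CPM at Day 0. Compression exceeded every Day 0 library in all 4 replicates for Rps29 and in 3 of 4 for Rps19. Rps19 rose by 0.34 ± 0.12 (adjusted p = 0.0282), and without compression replicate 4 the value was 0.22 (adjusted p = 0.120). It was also not called without Day 0 replicate 1, 3 or 4 or compression replicate 2 or 3 (adjusted p 0.0601 to 0.104).

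Rpl37a, a zinc-binding large subunit protein, averaged 449 ± 47 CPM under compression, 410 ± 15 CPM in controls and 356 ± 47 CPM at Day 0 (0.33 ± 0.09 against Day 0, adjusted p = 0.0103). Rps15, of the small subunit's head, averaged 790 ± 92, 713 ± 38 and 635 ± 57 CPM in the same order (0.32 ± 0.09, adjusted p = 0.00975). Rpl13a, known in human cells for a second role in halting translation of inflammatory mRNAs, averaged 1306 ± 121, 1210 ± 45 and 1065 ± 89 CPM (0.29 ± 0.08, adjusted p = 0.00763). All 3 had their compression mean highest and their Day 0 mean lowest, but a compression mean above Day 0 follows from how they were named. Rps6, the small subunit protein that S6 kinases phosphorylate and whose start window is shown above for its long run, was also among the 25, with 543 ± 50 CPM under compression, 506 ± 27 CPM in controls and 453 ± 42 CPM at Day 0 (adjusted p = 0.0168 for compression against Day 0). Compression libraries lay wholly above Day 0 in 8 members, among them Rps27l, Rpl31, Rps29 and Rpl23, and wholly below in 1, the low-count Rpl30, against 23.5% and 19.5% of all genes.

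**Figure D5:**
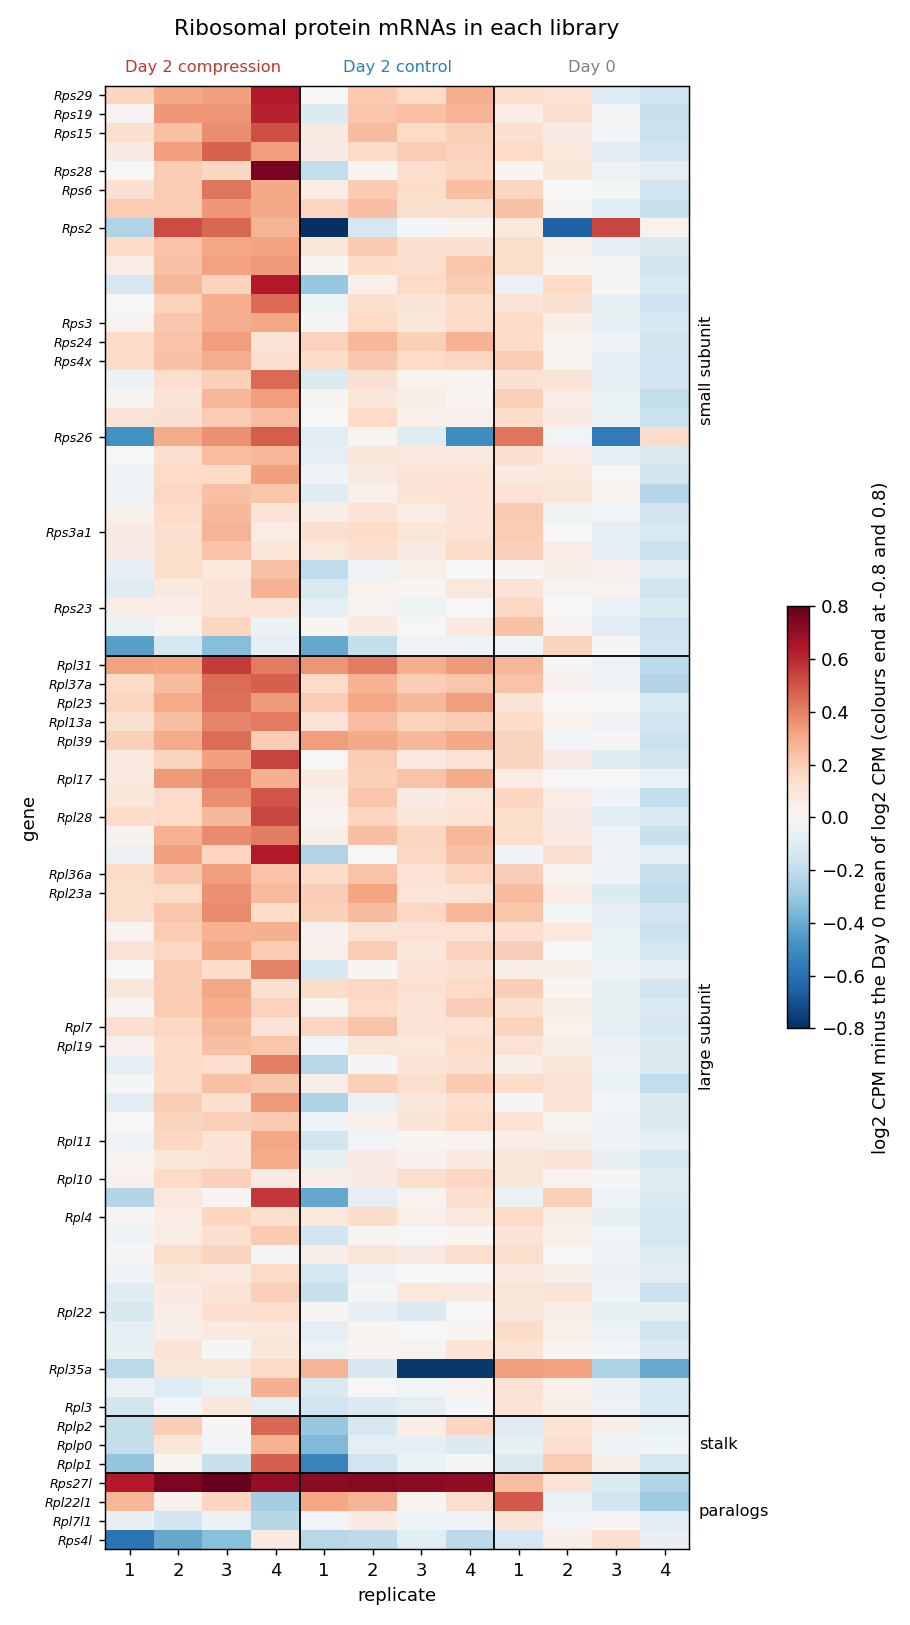
Log2 CPM of 77 ribosomal protein genes (rows, by role, some of them named) in the 12 libraries (columns), each minus its mean over the 4 Day 0 libraries; red is above and blue below that mean, and colours end at -0.8 and 0.8. Most rows redden together in compression replicates 2, 3 and 4, while Rps27l is red in all 8 Day 2 libraries and Rps4l is blue in 7 of them.

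The 4 measured paralogs did not share a direction. Rpl22l1, the near copy of Rpl22, had 120.2, 102.5, 112.8 and 82.4 CPM under compression, 124.1, 120.6, 101.6 and 110.3 CPM in controls, and 140.6, 96.4, 90.1 and 82.0 CPM at Day 0. The groups overlapped, and its log2 fold change was -0.13 ± 0.16 for compression against control, 0.16 ± 0.16 for control against Day 0 and 0.03 ± 0.16 for compression against Day 0 (adjusted p 0.445 to 0.887). Its level per length (TPM) was 33.2% ± 7.6 of that of Rpl22 under compression, 38.3% ± 2.8 in controls and 33.1% ± 6.8 at Day 0 (SD, n = 4 each).

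Rps4l, which the annotation lists as a transcribed processed pseudogene (chr6:148354656-148355598, plus strand), had 15.97, 17.97, 18.99 and 25.16 CPM under compression, 20.5, 20.7, 22.5 and 20.7 CPM in controls, and 21.8, 24.8, 26.3 and 22.9 CPM at Day 0. In 3 compression libraries it was below every other library, and in replicate 4 it was inside the Day 0 range. Its log2 fold change was -0.29 ± 0.12 for compression against Day 0 (adjusted p = 0.0537), -0.18 ± 0.12 for control against Day 0 (adjusted p = 0.240) and -0.11 ± 0.12 for compression against control (adjusted p = 0.698). Without compression replicate 4 the first of these was -0.46 (adjusted p = 0.00118), and without Day 0 replicate 1 -0.36 (adjusted p = 0.0384). Its level per length (TPM) was 2.48% ± 0.58 of that of its parent Rps4x under compression, 2.72% ± 0.15 in controls and 3.51% ± 0.54 at Day 0. The ratio also moves with Rps4x, whose log2 fold change against Day 0 was 0.195 under compression (edgeR adjusted p = 0.0475) and 0.166 in controls (adjusted p = 0.0986). The shared 50-base stretches of Rps4l were not computed, and those of Rps4x were 72.2%. Whether reads of the parent were counted for Rps4l was not tested.

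Rpl7l1 averaged 130 ± 7 CPM under compression, 140 ± 4 CPM in controls and 141 ± 8 CPM at Day 0. Its log2 fold change against Day 0 was -0.12 ± 0.06 under compression (adjusted p = 0.100) and -0.005 ± 0.059 in controls (adjusted p = 0.958). The fall under compression was called without Day 0 replicate 4 (-0.17, adjusted p = 0.0240), compression replicate 1 (-0.16, adjusted p = 0.0340) or compression replicate 3 (-0.16, adjusted p = 0.0459). Relative to Rpl7 its level per length (TPM) was 8.20% ± 0.41 under compression, 8.97% ± 0.16 in controls and 10.02% ± 0.51 at Day 0. All 4 Day 0 values of this ratio lay above all 8 of Day 2. The ratio also moves with Rpl7, whose log2 fold change against Day 0 was 0.15 in controls and 0.165 under compression. Neither was called (edgeR adjusted p = 0.116 and 0.0763). How often such ratios of other gene pairs do not overlap was not computed.

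In the stalk, fold changes of control against Day 0 were below 0 (0 of 3 genes above 0, median -0.15). Those of compression against Day 0 were near 0 (3 of 3 above 0, median 0.05), and neither comparison called a stalk gene. Rplp0 did not overlap between control and Day 0 libraries, with the values given above. Rplp1 and Rplp2 did overlap, and Rplp2 differed by only -0.05 ± 0.13 (adjusted p = 0.802). At an unadjusted p under 0.05 the edgeR test likewise gave 0 stalk genes.

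A few members varied far more between replicates than the rest. The SD of log2 CPM within groups had a median of 0.12 over 76 members, against 0.16 over all genes tested and 0.11 over genes above 100 CPM, but reached 0.48 for Rps2, 0.38 for Rpl35a and 0.37 for Rps26. Rps2 had 472.3, 799.7, 767.2 and 672.5 CPM under compression, 246.6, 508.4, 550.9 and 567.6 CPM in controls, and 590.1, 356.5, 807.7 and 567.6 CPM at Day 0. Rpl35a had 216.4, 266.7, 268.0 and 279.0 CPM under compression, 303.3, 229.2, 146.8 and 147.1 CPM in controls, and 316.9, 313.9, 210.1 and 189.7 CPM at Day 0. The high and low libraries differed between these genes, and all 3 groups overlapped. In the transcripts of GRCm38, 71.3% of the 50-base stretches of Rps2, 54.5% of those of Rpl35a and 38.3% of those of Rps26 occur in other annotated genes, most of them pseudogenes. These 3 genes were chosen after their values were seen.

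Most members rose and fell together from library to library. Of the genes outside the members, Fau was the most like the mean log2 CPM of the members over the 12 libraries (r = 0.96). It encodes the small subunit protein eS30 fused to a ubiquitin-like unit. Uqcr10 (0.95) and Uqcrfs1 (0.93), of respiratory complex III, and Kdelr1 (0.93), a retrieval receptor of the endoplasmic reticulum, were also among the 5 most like. Fau averaged 341 ± 51 CPM under compression, 303 ± 21 CPM in controls and 278 ± 28 CPM at Day 0, and it rose under compression against Day 0 (adjusted p = 0.0271). Among the members, Rps3 (0.98) and Rpl19 (0.97) were among the closest to the mean and Rpl7l1 (-0.28), Rpl30 (-0.24) and Rps4l (-0.06) farthest. Rpl30 has few counts, and its values are not read as levels. Rpsa, an abundant member chosen after its values were seen, was also far from the mean (0.13). It averaged 1072 ± 126 CPM under compression and 1267 ± 123 CPM at Day 0 (log2 fold change -0.24, edgeR unadjusted p = 0.0369, adjusted p = 0.0700). All these genes share each library's depth, and the relation with GC content, which differed between libraries, was not taken out.

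Fold changes were set beside the start-site run. Only tested members with a mean above 10 CPM were used, which leaves out Rps27 and Rpl34, both with a run. The 27 with the run had a median log2 fold change of 0.10 for compression against control, 0.04 for control against Day 0 and 0.16 for compression against Day 0, against 0.09, 0.09 and 0.19 in the 30 without it. Of 20 other mRNAs known for the tract, mostly of translation factors, 1 rose and 5 fell under compression against Day 0 (5% and 25%, median -0.07). In controls against Day 0, 1 rose and 3 fell (5% and 15%, median -0.09). Of all genes, 26.6% rose and 22.5% fell under compression, and 22.6% rose and 17.6% fell in controls. The shares that fell were thus near the background. Tpt1, a calcium-binding growth protein, rose under compression (1676 ± 67 CPM, against 1379 ± 82 CPM at Day 0, adjusted p = 0.00258), and Eif3a, the largest subunit of initiation factor eIF3, fell (531 ± 53 CPM, against 691 ± 52 CPM, adjusted p = 0.00134). Of 7 host genes of small nucleolar RNAs, 3 fell under compression (42.9%) and 2 in controls (28.6%), beside the same 22.5% and 17.6% of all genes. In either comparison with Day 0, 0 rose. Snhg3 had 12.8 ± 2.1 CPM under compression, 14.3 ± 1.4 CPM in controls and 19.4 ± 2.8 CPM at Day 0 (adjusted p = 0.00179 and 0.0164 against Day 0), and Snhg5 42.0 ± 3.6, 42.6 ± 0.9 and 50.5 ± 2.5 CPM (adjusted p = 0.00523 and 0.0107).

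Of 46 genes of ribosome assembly, 30 fell and 0 rose under compression against Day 0 (median -0.32), where 22.5% of all genes fell, and 16 did not pass. In controls 25 fell and 0 rose (median -0.23), where 17.6% of all genes fell, and 21 did not pass. At an unadjusted p under 0.05 the edgeR test also gave 0 higher in both. Heatr1, needed for transcription and processing of ribosomal RNA, fell to 60.4 ± 4.8 CPM under compression and 74.8 ± 2.0 CPM in controls, against 106 ± 4 CPM at Day 0 (adjusted p = 5.1e-07 and 2.84e-05). Polr1a, the largest subunit of RNA polymerase I, fell to 91.9 ± 7.7 CPM under compression and 107 ± 4 CPM in controls, against 153 ± 5 CPM at Day 0 (adjusted p = 1.27e-06 and 3.18e-05). Between compression and control 0 of 46 passed the threshold, with 41 of 46 below 0, a median of -0.12, and 15 lower at an unadjusted p under 0.05.

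Of 20 regulators of the pathway, 3 rose and 8 fell under compression against Day 0 (15% and 40%, against 26.6% and 22.5% of all genes). In controls 2 rose and 7 fell (10% and 35%, against 22.6% and 17.6% of all genes). Myc, a transcription factor that drives ribosome production, fell to 39.5 ± 2.8 CPM under compression and 40.0 ± 7.4 CPM in controls, against 78.1 ± 10.7 CPM at Day 0 (adjusted p = 2.93e-05 and 5e-05). Its relative Mycl rose to 62.5 ± 7.3 CPM under compression and 43.6 ± 7.0 CPM in controls, against 27.4 ± 3.4 CPM at Day 0 (adjusted p = 5.93e-06 and 0.000733). Compression and control did not differ past the threshold for either gene (adjusted p = 0.968 for Myc and 0.252 for Mycl).

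Rps27l is known as a target of p53. Of 13 genes listed for p53 and its other targets, 11 rose and 1 fell under compression against Day 0 (median 1.18, 26.6% of all genes higher), and 12 rose and 1 fell in controls (median 0.93, 22.6% of all genes higher). Cdkn1a, a brake of the cell cycle, rose to 194 ± 37 CPM under compression and 161 ± 21 CPM in controls, against 26.1 ± 9.9 CPM at Day 0 (adjusted p = 2.13e-06 and 5.93e-06). Ccng1, a cyclin, rose to 370 ± 45 CPM under compression and 340 ± 27 CPM in controls, against 126 ± 24 CPM at Day 0 (adjusted p = 1e-06 and 2.55e-06). Trp53, which encodes p53 itself, was the 1 gene of the list that fell, to 149 ± 8 CPM under compression and 143 ± 11 CPM in controls, against 190 ± 13 CPM at Day 0. The part of p53 in the rise of Rps27l was not tested.

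The ribosome of mitochondria is built from another set of nuclear genes. Of 77 genes of its proteins, 13 rose and 5 fell under compression against Day 0 (16.9% and 6.49%, against 26.6% and 22.5% of all genes). In controls 5 rose and 2 fell (6.49% and 2.6%, against 22.6% and 17.6% of all genes). The medians were -0.02 and -0.04. Mrpl33 had 32.3 ± 2.0 CPM under compression, 31.2 ± 1.0 CPM in controls and 22.9 ± 1.8 CPM at Day 0 (adjusted p = 8.33e-05 and 0.000272 against Day 0), and Mrps36 15.7 ± 1.2, 15.5 ± 0.8 and 11.3 ± 0.8 CPM (adjusted p = 0.000475 and 0.00089). Between compression and control 51 of 77 were above 0, with a median of 0.04, and 0 passed the threshold (0 higher and 3 lower at an unadjusted p under 0.05).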

How the data were processed

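The authors deposited 1 table of raw counts per gene symbol for 12 libraries. Per the submitters' processing notes, fastp, STAR and the mm10 build were used; versions, the counting step, annotation, strand and treatment of multiply mapping reads were not given in the sources used here. Groups came from the labels. Counts were filtered by filterByExpr (minimum count 10, minimum total 15; 15246 genes), scaled by TMM and tested over all genes in R 4.3.3 with edgeR 4.0.16 (quasi-likelihood, robust, group as the only term, all 12 libraries), with Benjamini-Hochberg adjustment and a threshold of 0.05. SE is the fold change divided by the square root of F. DESeq2 1.42.0 and limma 3.58.1 (voom with quality weights) were alternatives. The fit was tested on simulated data. Members, lists and comparisons were chosen with earlier results of these data known. Named are, per comparison, the up to 6 called members with the largest rise or fall, or the 5 of smallest p where fewer than 3 pass, the 5 highest and lowest per length, members the filter left out, paralog pairs, and the 5 most alike genes outside; some genes this selects are not reported here. Coordinates, lengths and shared 50-base stretches come from GENCODE's GRCm38 annotation, and start windows from RefSeq. Total counts limit precision: a count of 0 allows 3 counts, which covers counting error only. Replicates 2 and 3 of compression share a number in their descriptions, differed beyond sampling noise (mean chi-square 3.93 per gene, the lowest of all pairs; 7.17 to 117 in the others) and were kept as 2 samples; if both came from 1 lung or animal, compression holds 3.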

Additional observations from a re-analysis of the deposited data

Results flagged for a closer look

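A library far from the other 3 of its group was found in 5 of the 105 groups of values examined, where chance gives about 1 in 20. Rplp0 had 1059 CPM in control replicate 1 against 1251 to 1288 CPM in the other controls, and 1481 CPM in Day 0 replicate 2 against 1295 to 1321 CPM in the other Day 0 libraries. Rps19 had 380 CPM in control replicate 1 against 478 to 495 CPM in the others. Rpl7l1 had 147 CPM in control replicate 2 against 137.9 to 138.7 CPM, and Rps4l had 22.5 CPM in control replicate 3 against 20.5 to 20.7 CPM.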

How the results depend on the processing

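Counts of called members moved as follows. For compression against Day 0, 25 higher and 0 lower became 15 higher with compression replicates 2 and 3 summed (3447 of 15374 genes of all kinds higher). With limma they became 51 higher and 3 lower (4870 and 4268 of 15246 genes). DESeq2 called 3 lower, DESeq2's size factors in edgeR 1 lower and the replicate block 2 lower (22 higher). Leaving out compression replicate 4 with TMM factors free of the members and Rn45s, chosen after seeing the data, gave 2 lower. From DESeq2 on, these fits called 3397 to 3811 genes of all kinds lower. For control against Day 0, 6 higher and 0 lower became 23 higher with limma (3722 of 15246 genes of all kinds higher). Without control replicate 4 and compression replicate 1, also chosen after seeing the data, 1 was lower (2757 of 15315 genes). Compression against control gave 1 higher with limma (1139 of 15246 genes). Leaving out 1 library at a time gave 10 to 36 higher and 0 to 2 lower for compression against Day 0, 4 to 14 higher and 0 to 1 lower for control against Day 0, and 0 for compression against control. In those fits 3387 to 4037 genes of all kinds were higher for compression against Day 0 and 2956 to 3372 for control against Day 0. With transcript lengths, 0 of the leading 5 per length were shared. The replicate numbers gave no clear pairing of the samples: deviations of same-numbered libraries correlated at -0.18 to 0.17. In compression against control and in compression against Day 0, 2 of 8 libraries were most alike to their own number. In control against Day 0 it was 5 of 8, with correlations of 0.049 to 0.112, so a pairing there is not excluded. Of 29 fold changes of named members, 3 changed sign, none of them among the 15 past the threshold. They were Rps27l for compression against control (-0.023 to 0.068 with single libraries left out, the lowest without compression replicate 3), Rpl7l1 for control against Day 0 (-0.052 to 0.0087, the highest without Day 0 replicate 1) and Rpl22l1 for compression against Day 0. The last was -0.00019 with compression replicates 2 and 3 summed, -0.052 without control replicate 4 and compression replicate 1, and -0.082 to 0.20 with single libraries left out. The cause was not tested. Of the 15, 3 fell below the threshold in some setting (Rps24, Rpl17 and Rps19), and of the other 14, 3 passed it in some setting (Rpl22l1, Rpl7l1 and Rps4l). The median of all genes moved by at most 0.02 on the log2 scale under other scalings. Depth limits Rpl39l and Rpl3l, with 28 and 24 counts.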
